A study of Homo sapiens with 4 samples.

Results

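The 46 genes described here encode the machinery that copies DNA in S phase. They were compared between human leukaemia cells recovered from brain and from spleen of transplanted mice, and were chosen by name, from origin licensing to nucleotide supply, out of 65217 genes in the deposited count table. All 46 were found by symbol and all 46 passed the filter on low counts. SEM is an established line of B-cell precursor acute lymphoblastic leukaemia carrying the KMT2A-AFF1 (MLL-AF4) fusion. The cells were transplanted into immunodeficient mice 6 to 10 weeks old, with no strain named in the sources used here. There were 2 brain libraries and 2 spleen libraries, which came from 2 occasions of the whole experiment, and RNA of 5 mice was pooled for each. The labels name no agent that differed between the groups, and SEM cells kept outside the animal were not analysed here. Both groups come from 1 cell line, pooling hides the spread between mice, and the protocol lists the leptomeninges where the sample titles say brain.

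DNA replication starts at origins, which the origin recognition complex marks and on which CDC6 and CDT1 load the MCM2-7 helicase in G1. In S phase CDC45 and GINS join that helicase, polymerases copy both strands behind it, the PCNA clamp holds the polymerases on DNA, and ribonucleotide reductase and thymidylate synthase supply deoxynucleotides. Many of these genes are textbook targets of the E2F transcription factors and are transcribed mostly around the entry into S phase, so that their level in a bulk sample follows the cells in cycle as well as the RNA per cell. In bulk RNA, fewer cells in S phase and less RNA per cell cannot be told apart.

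Letters of the E2F type stood upstream of some of the genes, and 4 such sequences are shown because these letters recur among the members. The RefSeq promoter table (GRCh38.p14) held 38 of the 46 genes, and the 250 bases before each start site were searched on both strands for TTTCCCGC, TTTGGCGC, TTTCGCGC and TTTGCCGC. Matches to the second and the third can overlap on opposite strands, and the start site is the one of the table. The search found 1 or more matches in 14 of the 38 genes (36.8%), against 3.40% of 27305 genes in the table. Those 14 were CDT1, E2F1, GINS2, LIG1, MCM3, MCM6, MCM7, PCNA, POLA1, POLA2, POLE, RFC3, TYMS and UHRF1. Below are the 250 upstream bases of PCNA (chr20:5126623-5126872), TYMS (chr18:657403-657652), E2F1 (chr20:33686386-33686635) and MCM6 (chr2:135876444-135876693), of which TYMS is on the plus and the other 3 are on the minus strand. They read 5′ to 3′ towards the start site, with the matches in capitals.
PCNA: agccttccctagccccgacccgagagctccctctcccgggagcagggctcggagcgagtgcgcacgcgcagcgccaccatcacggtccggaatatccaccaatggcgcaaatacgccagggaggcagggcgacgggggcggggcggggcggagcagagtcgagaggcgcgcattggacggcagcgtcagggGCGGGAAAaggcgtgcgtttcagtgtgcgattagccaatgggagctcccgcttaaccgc
TYMS: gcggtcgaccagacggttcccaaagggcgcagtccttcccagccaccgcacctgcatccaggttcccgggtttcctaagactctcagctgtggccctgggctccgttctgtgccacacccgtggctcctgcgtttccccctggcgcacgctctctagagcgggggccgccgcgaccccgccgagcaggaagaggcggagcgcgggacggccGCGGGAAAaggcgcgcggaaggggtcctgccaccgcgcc
E2F1: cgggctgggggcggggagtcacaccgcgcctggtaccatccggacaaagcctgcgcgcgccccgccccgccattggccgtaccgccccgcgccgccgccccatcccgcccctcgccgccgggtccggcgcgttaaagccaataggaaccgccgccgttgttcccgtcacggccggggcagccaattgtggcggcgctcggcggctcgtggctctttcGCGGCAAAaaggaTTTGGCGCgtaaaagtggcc
MCM6: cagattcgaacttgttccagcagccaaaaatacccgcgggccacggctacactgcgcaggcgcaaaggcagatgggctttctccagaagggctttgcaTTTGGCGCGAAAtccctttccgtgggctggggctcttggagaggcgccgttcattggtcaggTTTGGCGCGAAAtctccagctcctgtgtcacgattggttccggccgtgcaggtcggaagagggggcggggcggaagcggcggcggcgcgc
PCNA and TYMS each carry GCGGGAAA, the reverse complement of TTTCCCGC, which begins 59 and 39 bases before the start. E2F1 has 2 matches within 33 bases of its start, and MCM6 has a pair of overlapping matches at 2 places, 4 in all. A match is a run of letters and says nothing on whether a factor binds there. The median log2 fold change of brain over spleen was -0.24 in the 14 genes with a match and -0.35 in the 24 searched genes without one. The values overlapped, from -0.52 to 0.11 with a match and from -0.61 to 0.29 without. The difference between these groups of genes was not tested.

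The 4 libraries summed to 36913437 and 33055465 gene counts in brain and to 32972842 and 26266136 in spleen. Mouse transcripts took 2.24% and 1.45% of all counts in brain and 4.31% and 6.32% in spleen, and genes of the mitochondrial genome took 2.75%, 2.89%, 3.98% and 5.86% of the human gene counts in the same order. Spleen replicate 2 stood apart by base composition: the difference between the 2 spleen libraries followed the GC content of the transcript across the 46 genes (Pearson 0.65, Spearman 0.61), while that between the 2 brain libraries did not (0.11 and 0.06). The part of the mouse and mitochondrial shares in the results was not tested, and values with the GC and length trend removed and without spleen replicate 2 are given with the results. The cells carried the B-cell precursor markers, which summed to 2481 and 2332 CPM (counts per 1e6 counts of the library, with TMM factors) in brain and to 1955 and 2068 CPM in spleen. Of these 9 markers, 6 were higher in both brain libraries than in both spleen libraries, 2 were lower and 0 passed the test, where 30.2% of all genes tested were higher and 26.7% lower in this way. Summed levels of the T cell (5 genes), erythroid (5 genes) and neural and glial (5 genes) lists lay between 0.135 and 0.425 CPM, and CD3D, CD2 and SNAP25 were at 0 in every library, where a count of 0 allows up to between 0.0813 and 0.114 CPM. Myeloid markers (6 genes) summed to between 29.9 and 38.7 CPM and endothelial and stromal markers (6 genes) to between 177 and 249 CPM, most of it from PDGFRB and PECAM1.

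Brain was compared with spleen to ask whether the replication genes of these cells differed with the site from which they were recovered. Of the 46 genes 0 rose, 0 fell and 46 did not pass edgeR's quasi-likelihood test at an adjusted p under 0.05, while 1.63% of all 17075 genes tested passed as higher and 0.387% as lower in brain. The direction was nevertheless shared by most members. All members were read from the same libraries, so they are not independent observations of it. In 41 of 46 genes the log2 fold change was below 0, compared with 46.7% of all genes tested, and the median was -0.28 against 0.04 over all genes. Among 7665 protein-coding genes with a mean of at least 20 CPM, 51.6% were below 0 and the median was -0.01. Values of the members ran from -0.61 for FEN1, the nuclease that trims Okazaki fragments, to 0.29 for RFC1, the large subunit of the clamp loader. At an unadjusted p under 0.05 there were 20 members lower and 0 higher, where 9.94% of all genes were lower and 10.7% higher.

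The libraries taken one by one restate these values and are no separate test of them. In 34 of the 46 genes both brain libraries lay below both spleen libraries, in 0 both lay above, and in 12 the groups overlapped. Over all genes tested these shares were 26.7% below and 30.2% above. Both brain libraries lay below spleen replicate 1 in 37 genes, when spleen replicate 2 is left out (40.4% of all genes), and below spleen replicate 2 in 39 genes, when spleen replicate 1 is left out (38.9% of all genes). Within the occasions, 38 members were lower in brain in both and 1, RFC1, was higher in both, and 31.5% of all genes were lower in both. The median difference was -0.28 (log2) on the first occasion and -0.32 on the second. Together the 46 genes took 0.832% and 0.929% of the human gene counts of brain replicates 1 and 2 and 0.979% and 1.04% of those of spleen.

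**Figure D1:**
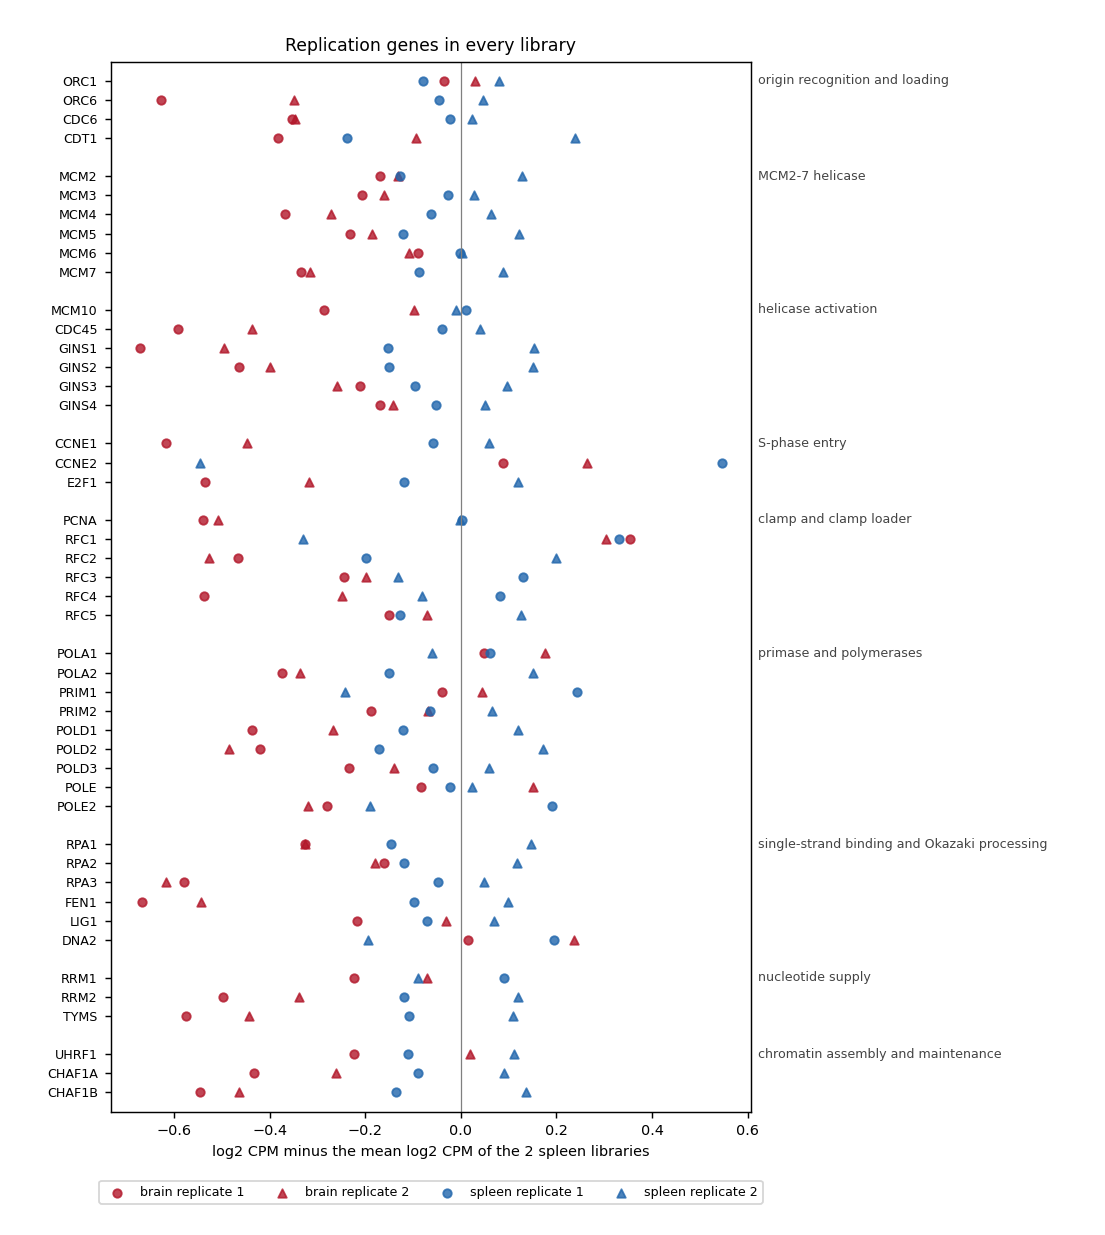
Level of each of the 46 genes in every library, as log2 CPM minus the mean log2 CPM of the 2 spleen libraries (horizontal axis), with genes in rows by role. Red symbols are brain and blue symbols spleen, circles replicate 1 and triangles replicate 2. In 34 rows both red symbols lie left of both blue ones, and the blue symbols of CCNE2 and RFC1 lie far apart.

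The standard error of a member's log2 fold change lay between 0.13 and 0.38 with a median of 0.15, and the 95% interval stayed within 1 log2 unit of 0 in 44 of 46 genes. The exceptions were CCNE1 (lower bound -1.01) and CCNE2 (upper bound 1.05). The size of the median depends on the scale. On deposited TPM, which is scaled per transcript length and shared with mouse transcripts, the median log2 ratio of brain to spleen over all genes was itself 0.25, that of the 42 members with a usable TPM was -0.01, and relative to all genes the members stood at -0.26. On that scale 14 of 42 members were lower and 9 higher without overlap, and 19 overlapped, where 14.1% of all genes were lower and 46.6% higher. Summed over the members, TPM came to 4424 and 5013 in brain against 4994 and 4892 in spleen, and these overlapped. Members were therefore low relative to other genes on both scales, whereas their summed level separated the sites on the CPM scale and not on the TPM scale.

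**Figure D2:**
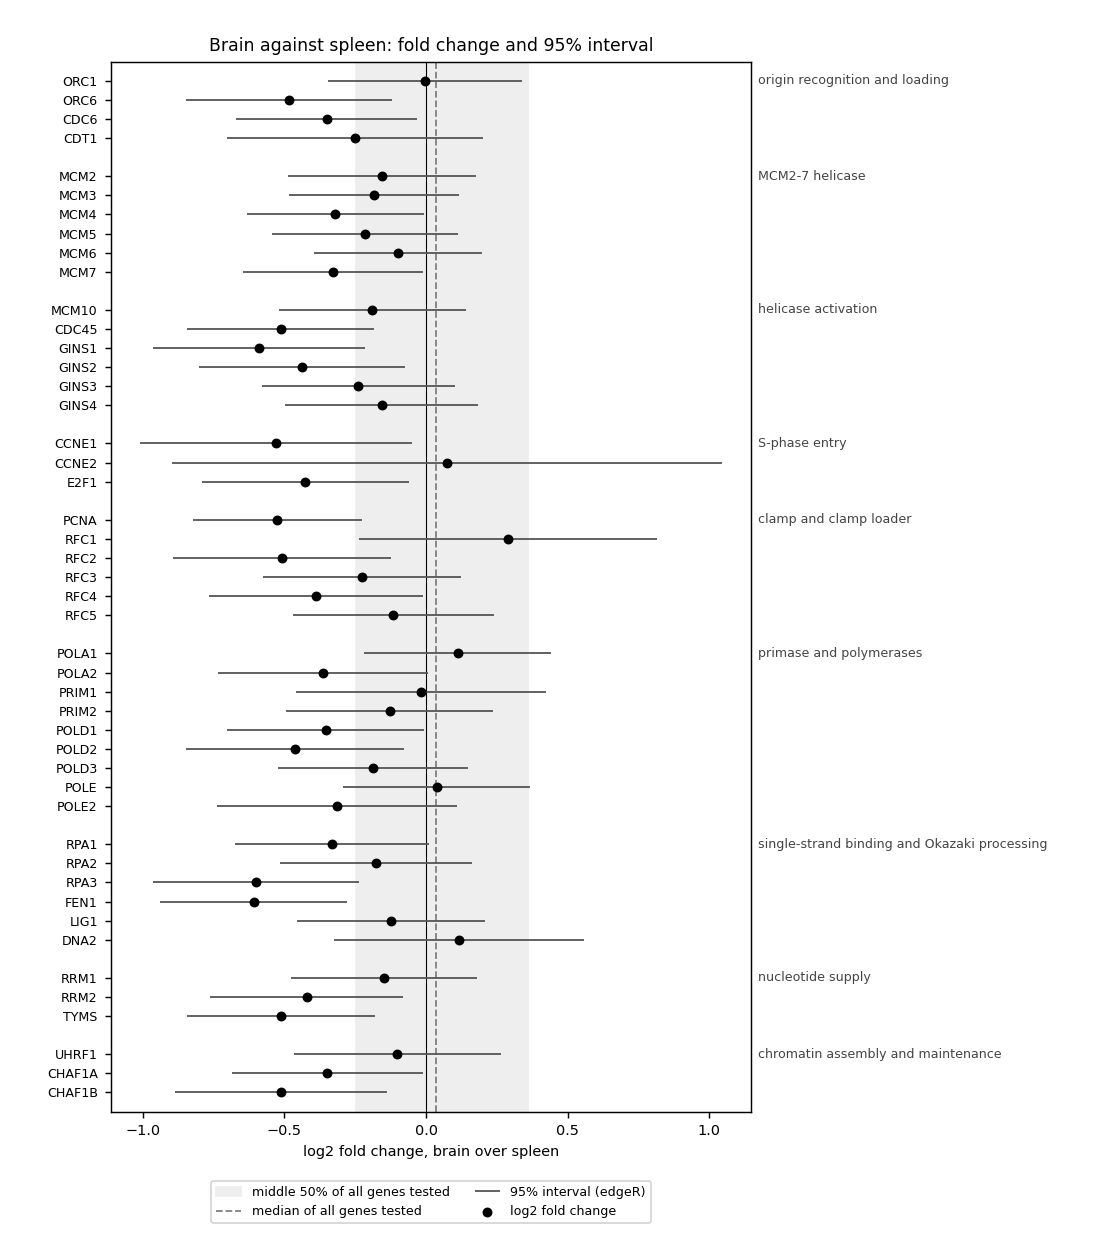
Log2 fold change of brain over spleen (horizontal axis, black points) with its 95% interval from edgeR (lines) for the 46 genes in rows by role. The grey band covers the middle 50% of all 17075 genes tested and the dashed line their median of 0.04. Points of 41 genes lie left of 0, from -0.61 for FEN1, and 5 lie right of it, up to 0.29 for RFC1.

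Origins are marked by the origin recognition complex, of which ORC1 and ORC6 were members here. ORC1, the subunit that binds ATP and helps to load the helicase, had 60.5 and 63.2 CPM in brain and 58.7 and 65.4 CPM in spleen. The brain values lay between the spleen values, and the log2 fold change was -0.0044 ± 0.15 (SE, adjusted p = 0.99 by edgeR). ORC6, the smallest subunit, had 57.4 and 69.7 CPM in brain against 86.0 and 91.6 CPM in spleen. Both brain libraries were below both spleen libraries, and the log2 fold change was -0.48 ± 0.16 (adjusted p = 0.148). The loaders CDC6 and CDT1 had log2 fold changes of -0.35 and -0.25. For CDC6 the sites did not overlap, whereas for CDT1 the brain values of 124 and 152 CPM overlapped the spleen values of 137 and 191 CPM.

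All 6 subunits of the MCM2-7 helicase, the ring that unwinds DNA, had both brain libraries below both spleen libraries, and 0 passed the test. Of all genes tested 26.7% lay below in this way. MCM2 had 392 and 402 CPM in brain and 404 and 481 CPM in spleen, a gap smaller than the distance between the spleen libraries. MCM3 had 489 and 504 against 553 and 575 CPM. MCM4 had 519 and 555 against 642 and 700 CPM. For MCM3 and MCM4, and for MCM6 and MCM7 below, the gap between the sites was larger than the distance within either site. MCM5 had 266 and 274 CPM in brain and 287 and 340 CPM in spleen. MCM6 had 310 and 306 against 330 and 330 CPM, the smallest relative difference of the 6. MCM7 had 701 and 710 against 832 and 940 CPM. The log2 fold changes were -0.16 ± 0.14 for MCM2, -0.18 ± 0.13 for MCM3, -0.32 ± 0.14 for MCM4, -0.21 ± 0.14 for MCM5, -0.10 ± 0.13 for MCM6 and -0.33 ± 0.14 for MCM7 (SE), with adjusted p-values from 0.231 to 0.694. The helicase genes were nearer to 0 than several of their partners, with a median of -0.20.

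The factors that turn the loaded ring into an active helicase had the lowest median of the roles with at least 6 genes, -0.34. Again 6 of 6 were lower in brain without overlap, as were 26.7% of all genes tested. GINS1, a subunit of the GINS complex, had 76.4 and 86.4 CPM in brain and 110 and 135 CPM in spleen. Both brain values were lower, with a log2 fold change of -0.59 ± 0.16 (adjusted p = 0.108). With the replicate number as a block GINS1 passed by edgeR (adjusted p = 0.0366) and did not by DESeq2 (adjusted p = 0.177). GINS4, another subunit, had 50.2 and 51.2 against 54.5 and 58.5 CPM, with a log2 fold change of -0.16 ± 0.15. Between them stood GINS2 at -0.44 and GINS3 at -0.24. CDC45, which bridges GINS and the ring, was at -0.51 and MCM10, which helps to start unwinding, at -0.19.

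Of the genes of S-phase entry, both E-type cyclins activate CDK2, and E2F1 drives transcription of the others. CCNE1 was the least abundant member, with 5.71 and 6.41 CPM in brain and 8.40 and 9.10 CPM in spleen. The brain values were lower, with a log2 fold change of -0.53 ± 0.21 (adjusted p = 0.205). CCNE2 had 17.8 and 20.1 CPM in brain and 24.4 and 11.4 CPM in spleen. Its spleen values lay on both sides of the brain values, and its log2 fold change of 0.07 ± 0.38 turned to -0.36 without spleen replicate 2. The transcript of CCNE2 had the lowest GC content of the 46, 34.6%. E2F1 had 77.0 and 89.5 against 103 and 121 CPM, without overlap, and a log2 fold change of -0.43 ± 0.16 (adjusted p = 0.187).

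The sliding clamp PCNA (chromosome 20, 5114953 to 5126626, GRCh38), whose upstream sequence is printed above, had 363 and 372 CPM in brain and 529 and 528 CPM in spleen. Each pair of libraries was tight and the pairs were far apart. The log2 fold change was -0.52 ± 0.13 and missed the threshold (adjusted p = 0.087, 95% interval -0.82 to -0.23). The clamp loader opens PCNA and closes it around DNA, and its subunits were spread out. RFC1 (chromosome 4, 39287456 to 39366375) had 155 and 150 CPM in brain, 153 CPM in spleen replicate 1 and 96.4 CPM in spleen replicate 2. Only the last library was apart from the other 3, so that the log2 fold change of 0.29 ± 0.22 (adjusted p = 0.493) became 0.01 without it. RFC2, a small subunit, had 117 and 112 CPM in brain and 141 and 186 CPM in spleen, with a log2 fold change of -0.51. RFC4, RFC3 and RFC5, the other small subunits, had log2 fold changes of -0.39, -0.23 and -0.12.

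The primase and polymerase genes had a median of -0.19 over 9 genes. Of these, 6 had both brain libraries below both spleen libraries (26.7% of all genes tested) and 3 overlapped. POLA1, the catalytic subunit of polymerase alpha, which extends the primer, had 93.5 and 102 CPM in brain and 94.3 and 86.6 CPM in spleen. The sites overlapped, with a log2 fold change of 0.11 ± 0.14 (adjusted p = 0.69). POLD2, an accessory subunit of the lagging-strand polymerase delta, had 57.3 and 54.8 CPM in brain and 68.1 and 86.4 CPM in spleen. Brain was lower without overlap, with a log2 fold change of -0.46 ± 0.17 (adjusted p = 0.178). Catalytic and accessory subunits of 1 enzyme could lie apart: POLE, the catalytic subunit of the leading-strand polymerase, stood at 0.04 and its partner POLE2 at -0.31, POLA1 at 0.11 and its partner POLA2 at -0.36. The differences within these pairs were not tested. POLD1 and POLD3 had log2 fold changes of -0.35 and -0.19, and the primase subunits PRIM1 and PRIM2 of -0.02 and -0.13.

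Both of the lowest log2 fold changes were found among genes of single-strand binding and Okazaki fragment processing. FEN1 (chromosome 11, 61792911 to 61797238) had 138 and 150 CPM in brain and 204 and 234 CPM in spleen. The higher brain library was well below the lower spleen library. Its log2 fold change of -0.61 ± 0.14 had the smallest adjusted p of the 46 (0.0768, 95% interval -0.94 to -0.28) and had an adjusted p of 0.0238 with the replicate number as a block. With the block it did not pass after the trend removal described further on (adjusted p = 0.0779) or by DESeq2 (adjusted p = 0.134). RPA3, the smallest subunit of the single-strand binding protein RPA, had 22.1 and 21.5 CPM in brain and 31.9 and 34.2 CPM in spleen, a log2 fold change of -0.60. RPA1 and RPA2 stood at -0.33 and -0.18. DNA2, a nuclease and helicase that acts on long flaps, had 27.3 and 31.9 CPM in brain and 31.0 and 23.7 CPM in spleen. These overlapped (log2 fold change 0.12 ± 0.19, adjusted p = 0.764), and the value turned to -0.05 without spleen replicate 2. LIG1, the ligase that seals the fragments, overlapped too, at -0.12.

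Thymidylate synthase, TYMS (chromosome 18, 657653 to 673578), makes dTMP, the precursor specific to DNA. It had 349 and 383 CPM in brain and 482 and 561 CPM in spleen. Brain was lower without overlap, with a log2 fold change of -0.51 ± 0.14 (adjusted p = 0.113). RRM2, the subunit of ribonucleotide reductase that is made in S phase, had 302 and 337 CPM in brain and 392 and 463 CPM in spleen, again without overlap, and a log2 fold change of -0.42 ± 0.15 (adjusted p = 0.168). RRM1, the large subunit, had 203 and 226 against 253 and 223 CPM, and the sites overlapped (log2 fold change -0.15 ± 0.14, adjusted p = 0.583).

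UHRF1, which recruits the maintenance DNA methyltransferase to newly copied DNA, had the highest counts of the 46, with 1617 and 1913 CPM in brain and 1747 and 2039 CPM in spleen. The brain and spleen values alternated, and the log2 fold change was -0.10 ± 0.16 (adjusted p = 0.749). CHAF1B, a subunit of chromatin assembly factor 1, which places new histones behind the fork, had 43.9 and 46.4 against 58.3 and 70.4 CPM. Its sites did not overlap, with a log2 fold change of -0.51 ± 0.16 (adjusted p = 0.141). Its partner CHAF1A stood at -0.35, also without overlap.

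The values above are counts, which grow with transcript length, and levels of different genes were compared on the TPM scale. TPM was left out for MCM4, CCNE2, POLE2 and POLA2, whose annotated transcripts held less than 95% of the gene's counts in at least 1 library. UHRF1 was first of 42 in every library, with 573 and 712 TPM in brain and 580 and 599 TPM in spleen. TYMS and PCNA held ranks 2 and 3 in changing order, MCM7 rank 4 and MCM3 rank 5 in all 4 libraries, and CCNE1 was last with 4.74 to 6.99 TPM. PCNA had 405 and 438 TPM in brain and 554 and 490 TPM in spleen, and TYMS had 391 and 452 against 522 and 550 TPM, so that neighbours at ranks 2 and 3 differed by less than their spread over libraries. Between 60.1% and 68.7% of the TPM of MCM7 was assigned to transcripts annotated as retained intron, so its rank rests on how reads were divided among its transcripts.

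Subunits of 1 complex were not equal in level. Within the MCM ring without MCM4, the most and the least abundant subunit, MCM7 and MCM6, differed by 3.28 to 3.93 times. The GINS subunits lay closest in brain, within 1.46 and 1.54 times, and within 2.28 and 2.34 times in spleen, with GINS4 as the lowest in all 4 libraries. GINS4 is a case in which the scales part: it had 32.1 and 30.5 TPM in brain and 21.2 and 21.7 TPM in spleen, higher in brain, while its CPM was lower in brain. In the clamp loader RFC2 was the highest subunit in all 4 libraries, 2.10 to 4.47 times the lowest, which was RFC1 in spleen replicate 2.

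**Figure D3:**
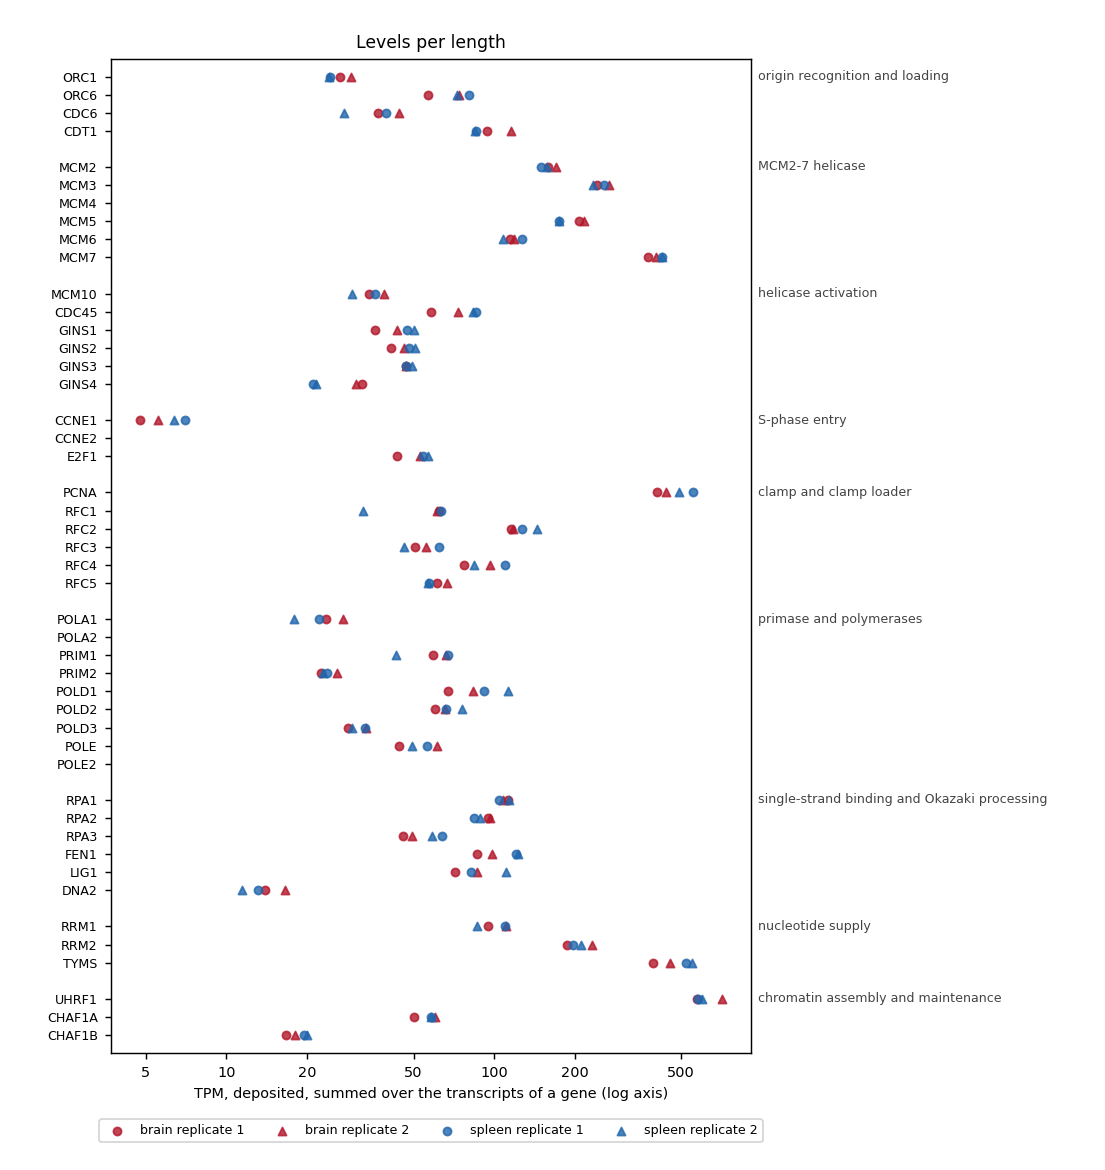
TPM of 42 of the 46 genes in every library (horizontal log axis), in rows by role, with MCM4, CCNE2, POLA2 and POLE2 left empty. Red symbols are brain and blue spleen, circles replicate 1 and triangles replicate 2. UHRF1, TYMS, PCNA and MCM7 lie at the right and CCNE1 at the far left, and the spread between genes is far wider than that between libraries of a gene.

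The division of a gene's TPM among its transcripts was compared as well. For 39 members with at least 2 annotated transcripts and 100 counts in every library, the share of the canonical transcript, the one the annotation takes as representative, was set side by side. It was lower in both brain than in both spleen libraries in 15 members, higher in 12 and overlapping in 12. Over 8067 genes analysed in the same way, 30.3% were lower and 23.7% higher. The median difference, brain minus spleen, was 0.26 percentage points in the members and -0.59 over these genes. Such differences were thus not particular to the members. GINS4 had a canonical share of 49.2% and 55.9% in brain against 81.9% and 74.0% in spleen, and that of its retained-intron transcripts 36.1% and 27.8% against 4.23% and 15.7%. RRM2 showed the same direction, with a canonical share of 59.4% and 56.5% against 73.3% and 71.1% and a retained-intron share of 34.3% and 38.2% against 20.8% and 23.6%. In the opposite direction, POLE had a canonical share of 60.2% and 52.6% in brain against 43.0% and 42.9% in spleen, and POLD1 one of 62.3% and 60.7% against 51.9% and 44.7%. These shares are estimates from short reads and were not tested.

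**Figure D4:**
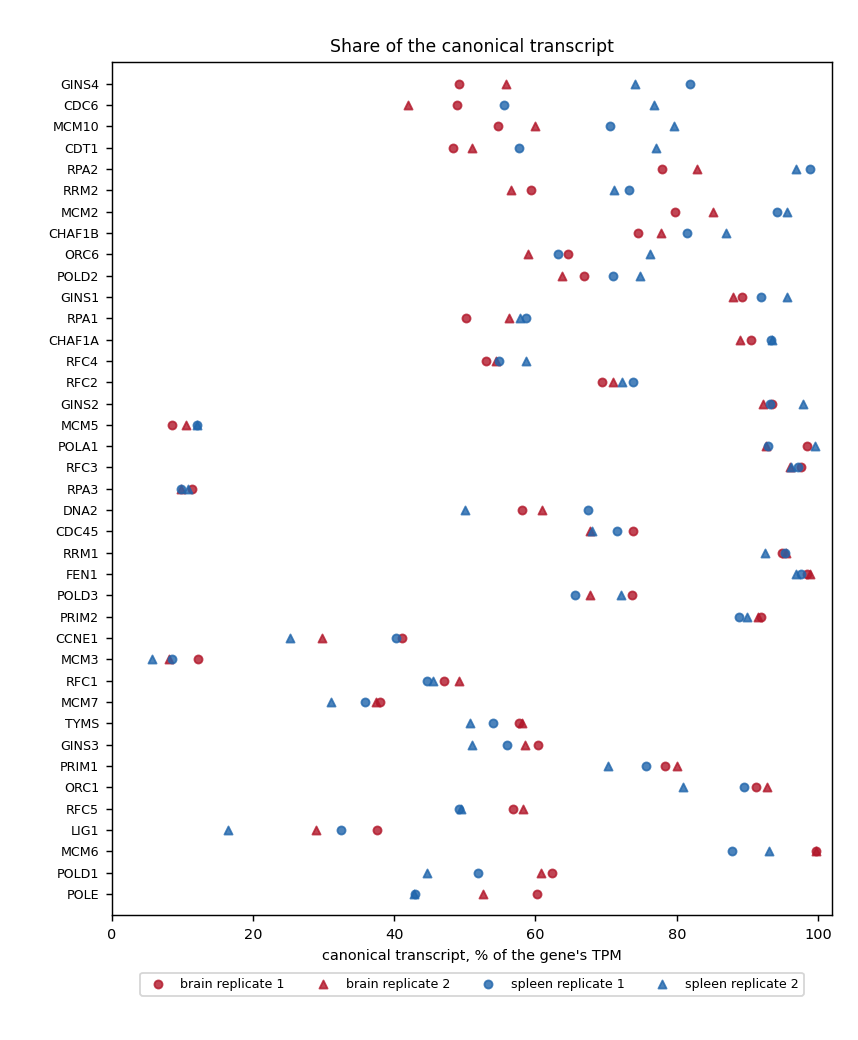
Share of the canonical transcript in the TPM of each of 39 genes (horizontal axis, %), sorted by the difference of brain and spleen. Red symbols are brain and blue spleen, circles replicate 1 and triangles replicate 2. At the top GINS4 has its red symbols at 49.2% and 55.9% and its blue ones at 81.9% and 74.0%, and at the bottom POLE has red at 60.2% and 52.6% and blue at 43.0% and 42.9%.

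Among the members the fold change followed transcript length. Across the 46 genes the log2 fold change correlated with the length of the main transcript (Pearson 0.49, Spearman 0.45) and with the trend that GC content and length give over all genes (Pearson 0.64, Spearman 0.58). These are correlations across genes, which share their 4 libraries and are not independent. RPA3, with a main transcript of 847 bases, stood at -0.60, and of the 5 members above 0 all but CCNE2 (RFC1, DNA2, POLA1 and POLE) had main transcripts of 4208 to 7840 bases. With the trend removed in each library, the member median was -0.25, against 0.04 over all genes, and 42 of 46 were below 0. RPA3 then stood at -0.29, PCNA at -0.34, POLA1 at -0.10, DNA2 at -0.15 and POLE at -0.12. FEN1 (-0.48, adjusted p = 0.0489), CDC6 (-0.49, adjusted p = 0.0448) and CHAF1B (-0.58, adjusted p = 0.0438) passed, where 0.791% of all genes passed as lower.

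**Figure D5:**
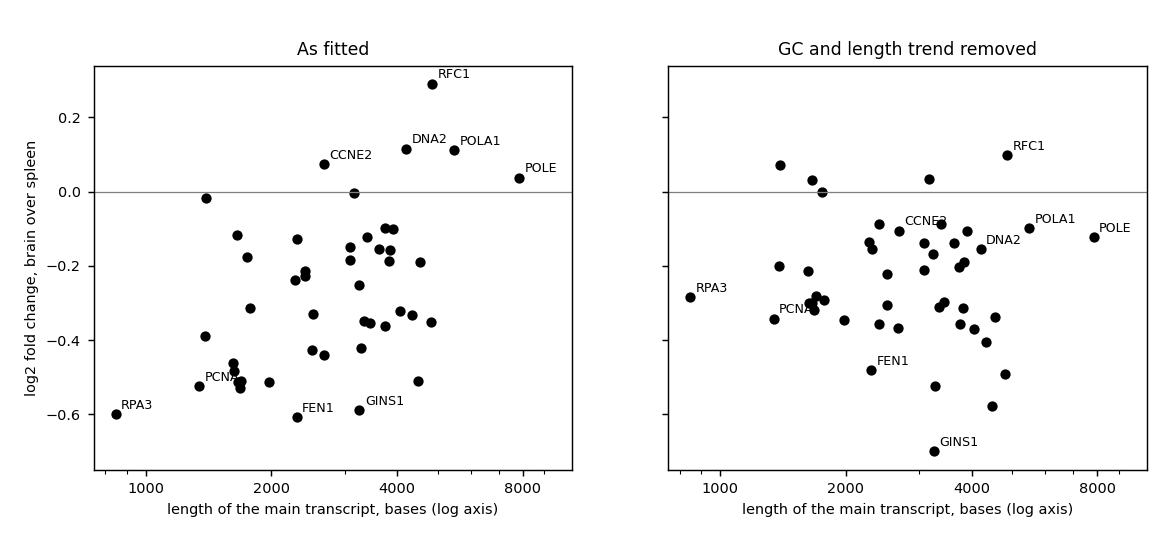
Log2 fold change of brain over spleen (vertical axis) against the length of the main transcript in bases (horizontal log axis) for the 46 genes, as fitted (left) and with the GC and length trend of each library removed (right). Each point is 1 gene. On the left the points climb with length (Pearson 0.49), and on the right they do not (-0.03).

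How many members passed depended on the fit, and every member that passed in the full set of libraries was lower in brain. Under DESeq2 they were 3, FEN1, PCNA and RPA3 (2.33% of all genes lower). With the replicate number as a block they were 2, FEN1 and GINS1 (3.37% of all genes lower), and with the block and the trend removal 1, GINS1 (0.574%). With the block in DESeq2 they were 0. Without the filter on low counts they were 7, CDC45, FEN1, GINS1, PCNA, RFC2, RPA3 and TYMS (2.47%). Leaving out a spleen library moved the count most. Without spleen replicate 2, 16 members were lower (7.63% of all genes). Without spleen replicate 1, 32 were lower and 2, CCNE2 and RFC1, were higher, where 19.0% of all genes were lower and 18.9% higher. In these 2 fits the lone spleen library is assumed to vary like the brain libraries. Over all 15 refits of the counts, between 38 and 43 of the 46 members were below 0.

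Further genes of the same processes were taken from lists of other replication genes. Of 31 further replication factors 0 passed, with a median of -0.04. In this list 12 were lower and 2 higher in brain without overlap, and 17 overlapped. Over all genes tested 26.7% were lower and 30.2% higher in this way. TOP1, the topoisomerase that relaxes DNA ahead of the fork, had a log2 fold change of 0.12 and TOPBP1, a scaffold in helicase activation, of 0.33, and both overlapped. Without spleen replicate 2 these values were -0.14 and 0.02, and without spleen replicate 1 they were 0.41 and 0.70. Of 12 enzymes of deoxynucleotide metabolism 1 fell and 0 rose (median -0.24). It was DTYMK, which phosphorylates dTMP, the product of TYMS, with 60.0 and 60.6 CPM in brain and 95.2 and 105 CPM in spleen. The fall of DTYMK was -0.73 ± 0.14 (log2 fold change, SE, adjusted p = 0.0488 by edgeR). The call ended with RLE factors (adjusted p = 0.0504), with the trend of GC content and length taken out (adjusted p = 0.0783) and without either brain library, among others. The call held by DESeq2 (adjusted p = 0.00243) and with the replicate number as a block in edgeR (adjusted p = 0.00673). Without 1 library in turn the log2 fold change of DTYMK ran from -0.85 to -0.65.

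Of 12 genes of replication-coupled chromatin assembly 0 passed, with a median of -0.24. RBBP4, a histone chaperone shared with chromatin assembly factor 1, stood at -0.31 and SSRP1, a subunit of the chaperone FACT, at -0.40, both without overlap. Of 28 genes tested that control the G1/S switch 0 passed, 14 were lower and 9 higher without overlap, and the median was -0.19. The shares without overlap over all genes tested were 26.7% lower and 30.2% higher. CDK6, a cyclin D kinase, stood at 0.09 (-0.14 without spleen replicate 2 and 0.33 without spleen replicate 1) and CCND3, cyclin D3, at -0.78 (adjusted p = 0.0661). Of 18 genes of replication stress and repair 0 passed and 12 overlapped, with a median of 0.05. MSH6, a mismatch repair gene, had 684 and 687 CPM in brain and 577 and 574 CPM in spleen, a log2 fold change of 0.25, and FANCI, of the Fanconi pathway, stood at -0.03. Of 20 mitosis genes 0 passed, 9 were lower and 0 higher without overlap, with a median of -0.13. Their median difference was -0.37 (log2) on the first occasion and 0.07 on the second, against -0.28 and -0.32 for the members. TOP2A, the mitotic topoisomerase, had 716 and 763 CPM in brain, 744 CPM in spleen replicate 1 and 383 CPM in spleen replicate 2 (log2 fold change 0.39, 0.90 without spleen replicate 1 and 0.0032 without spleen replicate 2). MKI67, the proliferation marker Ki-67, had 410 and 532 against 484 and 479 CPM and overlapped (log2 fold change -0.03). With the GC and length trend removed, the median was -0.23 for mitosis, -0.22 for chromatin assembly and -0.18 for the further replication factors. It was -0.18 for the deoxynucleotide enzymes, -0.15 for the G1/S switch and -0.06 for stress and repair, against -0.25 for the 46 members. The differences between these lists were not tested.

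Several of these counts are uncertain for their position. Exons of ENOSF1 on the opposite strand cover 39.9% of the exon bases of TYMS, those of INTS8 37.0% of CCNE2, and antisense long non-coding RNAs 23.6% of MCM2 and 21.0% of GINS4. The strand setting of the counting is not given in the sources used here, so reads of such partners cannot be told apart. Single protein-coding genes on the same strand cover 16.8% of POLA2, 10.9% of PRIM1 and 8.63% of POLD1, with smaller overlaps at PRIM1, FEN1 and CHAF1B.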

How the data were processed

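Poly(A) RNA of SEM cells from brain (2 libraries) and spleen (2 libraries) was sequenced, and the labels give the replicate number of the occasion. The submitters' processing notes name kallisto 0.42.4, cutadapt 1.5, bcl2fastq 1.8.4, DESeq2 and the builds GRCh38 and GRCm38. In the deposited gene table the values are estimated counts per gene, rounded and not normalised. The authors also deposited, per library, the estimated count and TPM of each human and mouse transcript, with TPM scaled over both species. A table of log2 values deposited by the authors was not used here, nor were 2 columns of values that match no sample.

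Symbols were taken from GENCODE release 44, which held 56322 of 65217 identifiers (86.4%). Brain and spleen were compared by edgeR 4.0.16 (quasi-likelihood test, robust fit, TMM factors, filterByExpr, R 4.3.3), with Benjamini-Hochberg adjustment over all 17075 genes that passed the filter and a threshold of 0.05. The labels name no cultures or animals per library beyond the pool of 5 mice, so p-values measure the spread between libraries. The script was tested on simulated data. Alternatives were RLE factors, library totals, other filters, DESeq2 1.42.0, protein-coding genes alone, transcript sums, removal of the GC and length trend by offsets, the replicate block and leaving out each library. The TPM scale and the comparison with single spleen libraries were added after seeing the data.

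Replicate libraries were not repeat samplings of 1 library (chi-square per gene 8.31 in brain and 58.9 in spleen, about 1 for sampling alone). Per the labels the number marks an independent occasion, and it was taken to pair the libraries. Deviations of same-numbered libraries correlated at 0.0269 (Pearson) and -0.0149 (Spearman) across genes, so no weight was put on a p that shrank with the block. Levels are given in every library for the members of highest and lowest fold change in each of 9 roles, for MCM2-7, PCNA, RRM2 and TYMS, and for a few others of those roles. In the further lists the called genes are named, or else the 2 of highest level. The members, the lists and the promoter letters were chosen with earlier results of these data known.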

Additional observations from a re-analysis of the deposited data

How the results depend on the processing

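Against 279 genes higher and 66 lower, the counts were 168 and 22 with library totals, 1269 and 854 without the filter, 108 and 16 with a stricter one, 560 and 397 by DESeq2, 184 and 17 among protein-coding genes, and 426 and 135 with the trend of GC content and length removed. The replicate block gave 1278 and 575, with the trend removed 424 and 98, and in DESeq2 320 and 101. Without 1 library in turn they ran from 297 to 3392 higher and from 107 to 3415 lower. Members lower were 0, but 7 without the filter, 3 by DESeq2, 3 with the trend removed, 2 with the replicate block, 1 with the block and the trend removed, and 0 to 32 without 1 library, where 0 to 2 were higher. Against the unblocked edgeR test the block changed the calls of FEN1 and GINS1. In DESeq2 it ended those of FEN1, PCNA and RPA3, and with the trend removed it ended those of CDC6, CHAF1B and FEN1 and added GINS1. The member median of -0.28 lay between -0.38 and -0.22 without 1 library and was -0.014 on the TPM scale, which was added after seeing the data.

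Fold changes near 0 changed sign (main value in brackets). ORC1 (-0.0044) was 0.051 with library totals, 0.021 with the stricter filter, 0.0069 with protein-coding genes alone, 0.035 with the trend removed, 0.035 with the block and the trend removed and -0.13 to 0.089 without 1 library, turning without brain replicate 1 and spleen replicate 2. CCNE2 (0.074) was -0.025 with transcript sums, -0.11 with the trend removed, -0.10 with the block and the trend removed and -0.36 to 0.68 without 1 library, turning without brain replicate 2 and spleen replicate 2. POLA1 (0.11) was -0.10 with the trend removed and -0.10 with the block and the trend removed. DNA2 (0.12) was -0.15 with the trend removed, -0.16 with the block and the trend removed and -0.052 to 0.27 without 1 library, turning without spleen replicate 2. UHRF1 (-0.10) was -0.26 to 0.028 without 1 library, turning without brain replicate 1 and spleen replicate 2. MCM4 (-0.32) was 0.30 with transcript sums, which held only a few percent of its counts. CDT1 (-0.25) was -0.52 to 0.021 without 1 library, turning without spleen replicate 2. RFC5 (-0.12) was 0.030 with the trend removed, 0.035 with the block and the trend removed and -0.29 to 0.029 without 1 library, turning without spleen replicate 2. PRIM1 (-0.018) was 0.031 with library totals, 0.0039 with the stricter filter, 0.071 with the trend removed, 0.0016 with the block, 0.073 with the block and the trend removed and -0.23 to 0.20 without 1 library, turning without brain replicate 1 and spleen replicate 1. POLE (0.037) was -0.12 with the trend removed, -0.13 with the block and the trend removed and -0.081 to 0.15 without 1 library, turning without brain replicate 2 and spleen replicate 1. TOP1 (0.12) was -0.14 to 0.41 without 1 library, turning without spleen replicate 2. CDK6 (0.091) was -0.26 with the trend removed, -0.26 with the block and the trend removed and -0.14 to 0.33 without 1 library, turning without spleen replicate 2. MSH6 (0.25) was -0.060 with transcript sums. FANCI (-0.028) was 0.026 with library totals and -0.13 to 0.071 without 1 library, turning without brain replicate 1. MKI67 (-0.032) was 0.024 with library totals and -0.23 to 0.14 without 1 library, turning without brain replicate 1. Other causes were not tested.

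With 2 pooled libraries a site, the 95% intervals of 44 of 46 members stayed within 1 log2 unit of 0. By edgeR 20 members were lower at an unadjusted p under 0.05, and 0 passed after adjustment over all genes. An interval that left out 0 was thus not enough to pass, and the smallest detectable difference was not measured.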
